A study of Homo sapiens with 12 samples.

Results

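The miR-29 family was followed in small RNA libraries of pancreatic ductal adenocarcinoma (PDAC) cells through 6 mature miRNAs, hsa-mir-29a-3p, hsa-mir-29a-5p, hsa-mir-29b-3p, hsa-mir-29b-1-5p, hsa-mir-29c-3p and hsa-mir-29c-5p. They were chosen by name, as arms of the hairpins of miR-29a, miR-29b and miR-29c, and are 6 of the 1733 miRNAs that the libraries list. A seventh arm, hsa-mir-29b-2-5p, comes from the remaining hairpin of the family and is reported beside them. The 12 libraries came from AsPC-1 and PANC-1, both established human PDAC cell lines, with 3 control and 3 MYEOV-knockdown libraries of each line. AsPC-1 was grown in RPMI and PANC-1 in DMEM, both with fetal bovine serum, so that line and medium cannot be told apart. MYEOV was knocked down with transfected siRNA, and small RNA was taken 48 h later according to the labels, while the methods of the study give a shorter time. The labels describe the controls as untreated and the protocol names a negative control siRNA. The labels number the knockdown libraries of each line 1 to 3 and do not say which of the listed siRNAs each received. MYEOV itself is not a miRNA and was not measured here, so the libraries hold no check of the knockdown. No label says whether the replicates are separate cultures, and the p-values measure only the spread between these samples, which may be technical.

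A hairpin precursor is cut into a duplex, of which one strand, the guide, is loaded into the silencing complex, and the opposite strand, the passenger, is mostly degraded. In the miR-29 family the guide is the 3p arm. A guide finds its targets mainly through its seed, bases 2 to 8, and the miR-29 guides are known to repress collagen and other extracellular matrix genes. MYC is known to repress the transcription of miR-29, and the study relates MYEOV to MYC.

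The mature sequences are shown because all 3 guides share a seed and differ only further on, while the passengers do not. They are RefSeq sequences, in which 6 of the 6 family miRNAs were found, written 5′ to 3′ with the seed in capitals. The guides are:
miR-29a-3p: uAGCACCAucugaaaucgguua
miR-29b-3p: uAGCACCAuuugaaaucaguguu
miR-29c-3p: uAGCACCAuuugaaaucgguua

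Of the 2370 human mature miRNAs in that table, 3 carry this seed, and they are the 3 miR-29 guides. Counted from 1 at the 5′ end, with the base of the first named guide first, miR-29a-3p and miR-29c-3p differ by 1 substitution, C10U. The guides of miR-29b and miR-29c share their first 17 bases and differ by A18G, G21U and U22A. Reads were kept only where they matched the genome perfectly, so that reads reaching these positions were assigned to a guide by these bases. This does not exclude misread bases. A miR-29a-3p read misread at C10U is a perfect match to miR-29c-3p. The part of such reads in the miR-29c-3p counts, and in the levels and ratios below, was not tested. The passengers are:
miR-29a-5p: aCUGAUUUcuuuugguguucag
miR-29b-1-5p: gCUGGUUUcauauggugguuuaga
miR-29b-2-5p: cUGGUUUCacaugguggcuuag
miR-29c-5p: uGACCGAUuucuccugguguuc

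The 4 passengers have 4 different seeds. They matter below because the guide of miR-29b is made by 2 hairpins that differ in their passengers. The hairpins of miR-29b are shown with the passenger and then the guide in capitals:
MIR29B1: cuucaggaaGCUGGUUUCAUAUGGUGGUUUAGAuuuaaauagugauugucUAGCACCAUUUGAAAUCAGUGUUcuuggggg
MIR29B2: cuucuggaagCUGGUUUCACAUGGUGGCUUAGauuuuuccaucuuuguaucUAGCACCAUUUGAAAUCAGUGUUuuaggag

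The guide is the same 23 bases in both, so a miR-29b-3p read cannot be assigned to a hairpin, whereas miR-29b-1-5p and miR-29b-2-5p reads can. The hairpins lie in 2 clusters on GRCh37, all on the minus strand. MIR29A (chr7:130561506-130561569) and MIR29B1 (chr7:130562218-130562298) are 648 bases apart on chromosome 7, inside the long non-coding RNA gene LINC-PINT. Of the 12 LINC-PINT transcripts that overlap either hairpin, 11 hold both in an intron. An exon of the remaining transcript holds all 81 bases of MIR29B1 and 2 bases of MIR29A. MIR29C (chr1:207975197-207975284) and MIR29B2 (chr1:207975788-207975868) are 503 bases apart on chromosome 1, inside MIR29B2CHG, their host gene. They are intronic in 4 of its 5 transcripts and exonic in 1.

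The libraries held 3805084 to 7311783 counted miRNA reads, given below as CPM, that is, scaled to one library size. On that scale 3 reads, taken as the floor, correspond to 0.410–0.788 CPM, a limit that covers counting error only. Every family arm was counted in every library. The epithelial miR-200 family, whose 5 miRNAs mark epithelial cells, summed to 51542–62093 CPM in AsPC-1 against 201–226 CPM in PANC-1, where miR-141-3p was at 0 to 0.578 CPM. The 4 fibroblast and smooth muscle markers summed to 4.57–6.55 CPM in AsPC-1 and 55.5–64.1 CPM in PANC-1, and miR-1-3p, a muscle miRNA, reached 100.4–163.9 CPM in PANC-1. Of the 5 blood markers, miR-486-5p alone was at 368–585 CPM over both lines and miR-223-3p at 0 to 0.176 CPM. The markers of islet, acinar and liver cells stayed between 0 and 11.3 CPM. Control replicate 1 of AsPC-1 stood apart from controls 2 and 3. The chi-square per degree of freedom between their counts was 224 and 183, against 22.1 between controls 2 and 3. Without it the line LFCs reported below were 1.97 for miR-29c-3p, 2.08 for miR-29c-5p, 1.83 for miR-29b-2-5p, 0.83 for miR-29b-3p, 0.42 for miR-29b-1-5p and 0.28 for miR-29a-5p, and no line call was gained or lost.

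The guides of the miR-29 family stood in the order miR-29a-3p, miR-29b-3p, miR-29c-3p in all 12 libraries. The counts are of whole short molecules, and no length scaling was applied. MiR-29a-3p made up 96.4–97.2% of the reads of the 3 guides in AsPC-1 and 93.9–95.1% in PANC-1. It ranked 18 to 21 among all miRNAs of the AsPC-1 libraries and 30 to 35 in PANC-1. MiR-29b-3p made up 2.46–3.19% of the guide reads in AsPC-1 and 4.59–5.85% in PANC-1. MiR-29c-3p made up 0.309–0.382% and 0.108–0.320%. Since the 3 guides share a seed, the counted reads with this seed are almost wholly miR-29a-3p. Whether shares of reads equal shares of molecules was not tested, nor was the part of misread miR-29a-3p reads in the miR-29c-3p share.

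Below miR-29b-3p the order depended on the line. In AsPC-1 controls miR-29c-3p was at 51.6 ± 8.31 CPM (SD, n = 3, scaled over all 12 libraries), and the 4 passengers followed at 18 ± 4.16 (miR-29b-1-5p), 11.3 ± 1.88 (miR-29c-5p), 10.4 ± 3.28 (miR-29a-5p) and 9.56 ± 2.15 CPM (miR-29b-2-5p). The values of the last 3 overlapped. In PANC-1 controls miR-29c-3p and miR-29b-1-5p could not be separated, at 12 ± 2.41 and 12 ± 2.68 CPM. MiR-29a-5p followed at 7.32 ± 1.27 CPM, and miR-29c-5p and miR-29b-2-5p overlapped at 2.81 ± 0.440 and 2.38 ± 0.614 CPM.

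**Figure D1:**
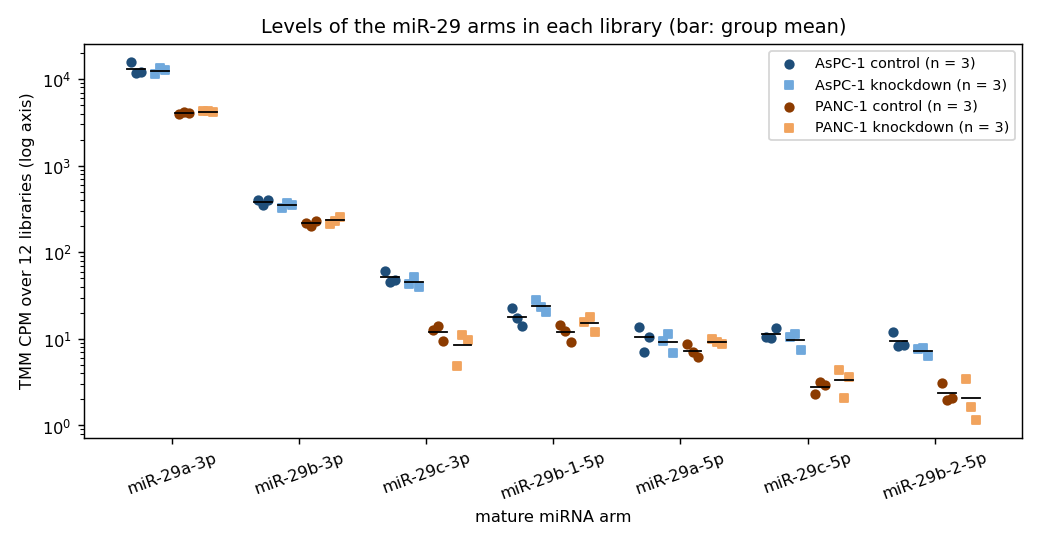
Level of the 6 family miRNAs and of miR-29b-2-5p in each of the 12 libraries, in TMM-scaled CPM on a log axis, with 3 libraries per group and a bar at the group mean. MiR-29a-3p lies between 11541 and 15801 CPM in AsPC-1 and between 3922 and 4305 CPM in PANC-1. MiR-29b-3p, miR-29c-3p, miR-29c-5p and miR-29b-2-5p are also each lower in every PANC-1 library than in every AsPC-1 library.

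The first comparison was of the lines, between their control libraries. All 3 guides were higher in AsPC-1, with miR-29c-3p 4.24-fold, miR-29a-3p 3.26-fold and miR-29b-3p 1.78-fold above PANC-1. The other arms that come only from the chromosome 1 cluster were also higher, miR-29c-5p by 4.0-fold and miR-29b-2-5p by 3.97-fold. The passengers of the chromosome 7 cluster differed less, miR-29b-1-5p by 1.49-fold and miR-29a-5p by 1.41-fold. Of the 6 family miRNAs, 5 were higher in AsPC-1 at an adjusted p under 0.05 (edgeR quasi-likelihood test) and miR-29a-5p did not pass. The lines differed widely in all miRNAs. Of the 650 miRNAs tested, 532 (81.8%) passed, 250 (38.5%) being higher in AsPC-1 and 282 lower. The median log2 fold change (LFC) was 1.27 over the 6 family miRNAs and -0.13 over all miRNAs tested. In bulk cultures, fewer cells with a miRNA and less of it per cell cannot be told apart.

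MiR-29a-3p, the main guide, was at 15801, 11840 and 12103 CPM in the AsPC-1 controls and at 3922, 4184 and 4087 CPM in the PANC-1 controls. The highest AsPC-1 value belongs to control replicate 1, and the lines do not overlap. The LFC was 1.70 (SE 0.10, adjusted p = 8.43e-18), and 1.59 without that library. Its passenger miR-29a-5p was at 13.7, 7.12 and 10.5 CPM in AsPC-1 and at 8.67, 7.13 and 6.16 CPM in PANC-1, and here the lines overlap. The LFC was 0.49 (SE 0.24, adjusted p = 0.0544). It passed without AsPC-1 control replicate 2 (LFC 0.71, adjusted p = 0.00742), without PANC-1 control replicate 1 (0.58, adjusted p = 0.0396) and without PANC-1 knockdown replicate 3 (0.52, adjusted p = 0.0425). Both arms come from the same hairpin.

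MiR-29c-3p, the guide of the chromosome 1 cluster, was at 61.1, 45.7 and 48.0 CPM in the AsPC-1 controls and 12.5, 14.1 and 9.36 CPM in the PANC-1 controls. All AsPC-1 values lie far above those of PANC-1, and the LFC was 2.08 (SE 0.19, adjusted p = 9.95e-13). Its passenger miR-29c-5p gave an LFC of 2.0 (SE 0.27, adjusted p = 1.84e-08). MiR-29b-2-5p, from the neighbouring hairpin, was at 12, 8.23 and 8.40 CPM against 3.08, 1.99 and 2.05 CPM. The groups do not overlap and the LFC was 1.99 (SE 0.30, adjusted p = 1.44e-07).

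MiR-29b-3p, the guide that both clusters make, was at 400, 353 and 401 CPM in AsPC-1 and 216, 202 and 230 CPM in PANC-1, with an LFC of 0.83 (SE 0.10, adjusted p = 2.17e-09). MiR-29b-1-5p, the chromosome 7 passenger, was at 22.4, 17.4 and 14.2 CPM and at 14.5, 12.3 and 9.13 CPM. Its lowest AsPC-1 value lies just under the highest of PANC-1, and the LFC was 0.57 (SE 0.20, adjusted p = 0.00966). The difference in miR-29b-1-5p did not pass with the control libraries alone (LFC 0.43, adjusted p = 0.0766) or without PANC-1 control replicate 3 (LFC 0.38, adjusted p = 0.0895).

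Scaling between 2 lines that differ this widely moves every LFC. The median LFC of all miRNAs shifted by -0.48 with total counts, by -0.16 with DESeq2 size factors and by 0.79 with upper-quartile factors, and 186 miRNAs were then higher and 350 lower in AsPC-1 with total counts, and 355 higher and 206 lower with upper-quartile factors. The LFCs of the 7 arms kept their order under each of these scalings. MiR-29a-3p ran from an LFC of 1.22 with total counts to 2.49 with upper-quartile factors, and miR-29c-3p from 1.60 to 2.86. The chromosome 7 passengers came close to 0 with total counts, miR-29a-5p at 0.01 and miR-29b-1-5p at 0.09, and neither passed. With DESeq2 size factors miR-29b-1-5p also did not pass (LFC 0.41, adjusted p = 0.0586), and with upper-quartile factors miR-29a-5p did (LFC 1.28, adjusted p = 3.96e-06). The marker sums given above differ between the same lines, and their part in these differences was not tested.

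**Figure D2:**
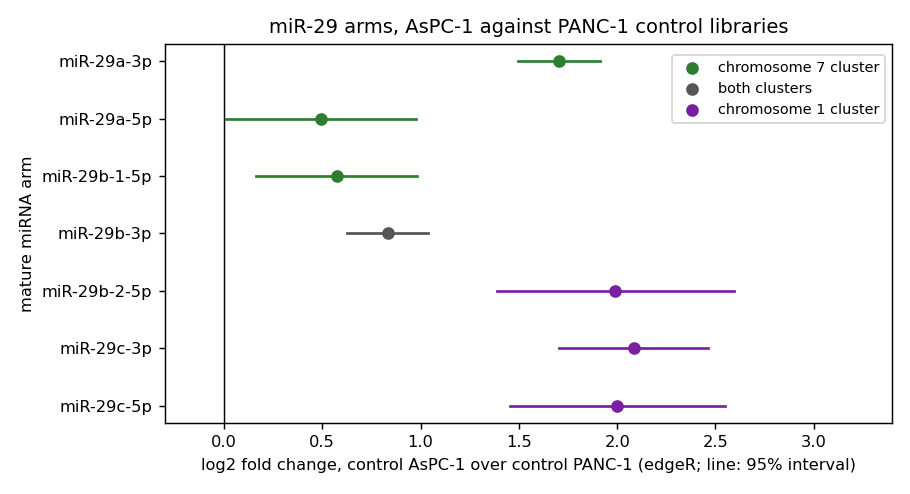
LFC of control AsPC-1 over control PANC-1 (x axis, log2) for each arm (y axis), with its 95% interval from the edgeR fit of all 12 libraries and colour by the cluster that makes the arm. The 3 arms made by the chromosome 1 cluster alone lie at 1.99 to 2.08, miR-29a-3p at 1.70, and the 2 passengers of the chromosome 7 cluster at 0.49 and 0.57.

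Ratios between arms of one library need no scaling, and were compared between all 6 libraries of each line with exact two-sided permutation tests, whose smallest p is 0.0022 for 6 against 6. The guide to passenger ratio of miR-29a differed between the lines. In AsPC-1 each miR-29a-5p read was matched by 1147 to 1831 miR-29a-3p reads, and in PANC-1 by 429 to 663. The geometric means were 1338 and 505, a 2.65-fold difference without overlap (exact p = 0.0022, adjusted over 3 arm ratios p = 0.00649). Over the libraries left out in turn the log2 difference was 1.31 to 1.48. The passenger counts behind it were 35–75 reads in AsPC-1 against 27–45 reads in PANC-1.

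The guide to passenger ratios of the other family members did not pass. MiR-29c-3p to miR-29c-5p had geometric means of 4.59 and 3.26 (exact permutation p = 0.199, adjusted p = 0.299), and it varied widely in PANC-1, from 1.11 to 5.42. MiR-29b-3p to miR-29b-1-5p had 18 and 16.9 (exact permutation p = 0.688), a ratio to which the second miR-29b hairpin adds guide reads. With the control libraries alone, 3 against 3, the exact test cannot go below 0.1. The difference for miR-29a was then 1.22 on the log2 scale, against 1.41 over all 6 libraries a line.

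The passengers of miR-29b show the share of each cluster in the reads that can be assigned. MiR-29b-1-5p, from chromosome 7, gave 65.1% (Wilson 95% interval 58.0–71.5), 67.9% (60.4–74.6) and 62.8% (54.4–70.4) of the reads of both passengers in the AsPC-1 controls, and 82.4% (73.3–88.9), 86.0% (77.2–91.8) and 81.6% (68.6–90.0) in the PANC-1 controls. The chromosome 7 share was higher in every PANC-1 control. Over all libraries the ratio of miR-29b-1-5p to miR-29b-2-5p was 1.69–3.67 in AsPC-1 against 4.44–11.0 in PANC-1, with geometric means of 2.49 and 6.39 (exact permutation p = 0.0022, adjusted over 4 between-arm ratios p = 0.00289). These 4 ratios were added after the levels had been seen, and their p-values describe a pattern already noticed. The intervals cover counting error only, and the PANC-1 libraries gave 49 to 91 such reads each.

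The guides also stood in different proportion. MiR-29a-3p to miR-29b-3p was 30.2–39.5 in AsPC-1 against 16.1–20.7 in PANC-1, with geometric means of 34.8 and 18.5 (exact permutation p = 0.0022, adjusted p = 0.00289). MiR-29b-3p to miR-29c-3p was 6.54–8.78 in AsPC-1 against 14.3–44.2 in PANC-1, with geometric means of 7.68 and 23.0 (exact permutation p = 0.0022, adjusted p = 0.00289). The ratio of miR-29a-3p to miR-29c-3p overlapped between the lines, with geometric means of 267 and 424 (exact permutation p = 0.00649, adjusted p = 0.00649). Relative to miR-29a-3p, PANC-1 thus held more miR-29b-3p and less miR-29c-3p than AsPC-1. These line comparisons pool control and knockdown libraries, and with the controls alone the log2 differences were 0.86, -1.28 and -0.42 in the same order, each with an adjusted p of 0.1, the smallest the exact permutation test can give.

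**Figure D3:**
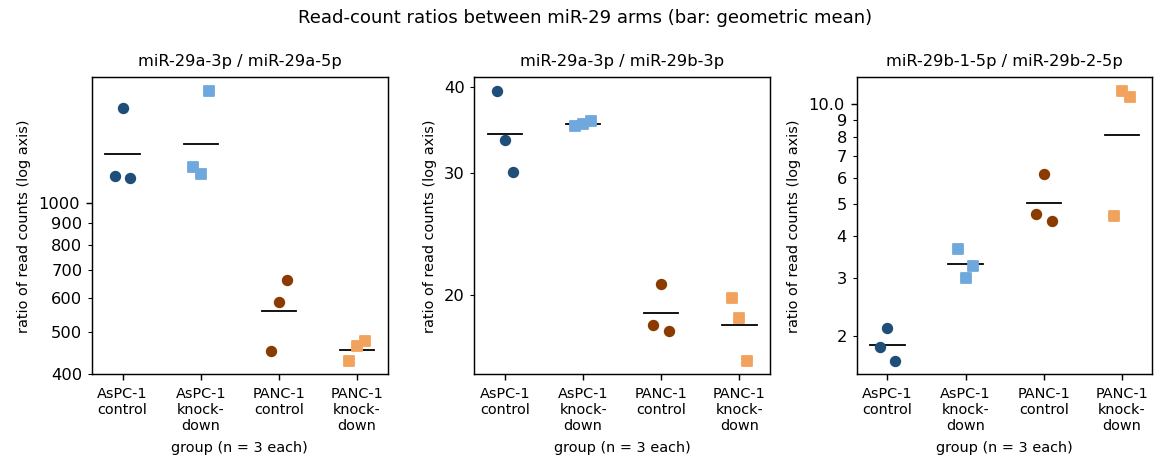
Ratio of read counts in each library (y axes, log scale) by group, with 3 libraries each and a bar at the geometric mean, for miR-29a-3p over miR-29a-5p, miR-29a-3p over miR-29b-3p and miR-29b-1-5p over miR-29b-2-5p. The lines do not overlap in any of the 3 panels, and in the last the AsPC-1 knockdown libraries, at 3.0 to 3.67, lie above the AsPC-1 controls, at 1.69 to 2.12.

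The second comparison asked what MYEOV knockdown did to the family in each line. No family miRNA passed the test in either line, and the main guide had LFCs of 0.02 and 0.06. In AsPC-1 0 of the 6 family miRNAs passed in either direction (edgeR quasi-likelihood test), 1 had an unadjusted p under 0.05 and DESeq2 called 0, while 57 of 498 miRNAs (11.4%) passed. In PANC-1 0 of 6 passed, 1 had an unadjusted p under 0.05 and DESeq2 called 0, while 121 of 551 (22%) passed. The 6 had a median LFC of -0.05 (AsPC-1) and 0.19 (PANC-1), against -0.00 and 0.03 over all miRNAs tested. Values below are scaled within a line.

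MiR-29a-3p was at 12805, 10590 and 10267 CPM in the AsPC-1 controls and at 11302, 11172 and 11572 CPM after knockdown. The knockdown values lie inside the range of the controls, and the LFC was 0.02 (95% interval -0.17 to 0.21, adjusted p = 0.921). Without control replicate 1, the highest library, the LFC was 0.13 and passed (adjusted p = 0.0474), in a fit in which 102 of 505 miRNAs (20.2%) passed. In PANC-1 miR-29a-3p was at 4475, 4738 and 4629 CPM in the controls and 4797, 4873 and 4723 CPM after knockdown, and the groups overlap. The LFC was 0.06 (95% interval -0.11 to 0.22, adjusted p = 0.660), and it turned to -0.09 with total counts, on which scale miR-29a-3p took 0.4704–0.4997% of the control libraries and 0.435–0.469% of the knockdown libraries. As a fold change the interval was 0.927 to 1.17 in PANC-1 and 0.887 to 1.15 in AsPC-1.

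MiR-29b-3p had LFCs of -0.03 (95% interval -0.20 to 0.14, adjusted p = 0.878) in AsPC-1 and 0.12 (-0.07 to 0.31, adjusted p = 0.366) in PANC-1, the latter turning to -0.03 with total counts. This guide is made by both clusters. The sum of the 3 guides was 10648–13179 CPM in the AsPC-1 controls and 11532–11933 CPM after knockdown. In PANC-1 it was 4736–4983 and 5028–5148 CPM, every knockdown library being above every control on this scale. As a share of all counted reads the order was the opposite, with the 7 arms at 0.5003–0.5284% of the control libraries and 0.465–0.497% of the knockdown libraries, so the direction depends on the scaling. Some marker sums moved with knockdown in PANC-1 too, without overlap between the groups on the scale over 12 libraries. The muscle markers summed to 103–122 CPM in the controls and 123–168 CPM after knockdown, and the blood markers to 371–392 and 408–508 CPM. The islet marker was at 8.62–10.5 and 5.11–7.81 CPM, and the liver marker at 1.93–2.97 and 3.22–5.01 CPM. The epithelial, fibroblast and acinar sums overlapped. Of single miRNAs, 202 of 551 (36.7%) did not overlap in PANC-1 on the scale within a line. Of these markers that were tested, only miR-1-3p passed (adjusted p = 0.0174, edgeR quasi-likelihood test). MiR-486-5p, nearly all of the blood sum, did not (adjusted p = 0.0812). The part of the marker sums in the PANC-1 knockdown values, those of the MYC lists included, was not tested.

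MiR-29c-3p, the scarcest guide, was at 49.5, 40.9 and 40.7 CPM in the AsPC-1 controls and 41.7, 44 and 36.8 CPM after knockdown, with an LFC of -0.10 (SE 0.13, adjusted p = 0.679), which turned to 0.01 without control replicate 1, the highest control. In PANC-1 it was at 14.3, 16.0 and 10.6 CPM in the controls and 5.46, 12.6 and 11.2 CPM after knockdown. The lowest value is knockdown replicate 1, with 21 reads, and the others overlap. The LFC of -0.49 (SE 0.23) had an unadjusted p of 0.0445 and an adjusted p of 0.129. It was -0.22 without knockdown replicate 1 (adjusted p = 0.536) and passed without control replicate 3 (LFC -0.64, adjusted p = 0.0368).

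MiR-29b-1-5p, the chromosome 7 passenger, was the family miRNA with the largest LFC in AsPC-1. It was at 18.2, 15.6 and 12 CPM in the controls and 27.2, 19.6 and 18.8 CPM after knockdown, and all knockdown values lie above all controls. In AsPC-1 the groups of 152 of 498 miRNAs (30.5%) did not overlap. The LFC was 0.52 (SE 0.19) with an unadjusted p of 0.0144 and an adjusted p of 0.0861. It passed without control replicate 1 (LFC 0.67, adjusted p = 0.00604) and with no filter on low counts (LFC 0.52, adjusted p = 0.0358), and was 0.33 without knockdown replicate 1 (adjusted p = 0.435). In PANC-1 miR-29b-1-5p was at 16.5, 13.9 and 10.3 CPM and then 18, 20.2 and 13.9 CPM, groups that overlap, with an LFC of 0.33 (SE 0.19, adjusted p = 0.222).

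The passenger of the other miR-29b hairpin, miR-29b-2-5p, was at 9.76, 7.36 and 7.13 CPM in the AsPC-1 controls and 7.41, 6.53 and 5.78 CPM after knockdown, with an LFC of -0.29 (SE 0.22, adjusted p = 0.421). The chromosome 7 share of the assignable reads was 78.6% (Wilson 95% interval 72.4–83.7), 75.0% (67.7–81.1) and 76.5% (68.7–82.8) in the AsPC-1 knockdown libraries, above all 3 controls, and the ratio of the passengers was 3.30 against 1.88. The exact permutation p was 0.1, the smallest that 3 against 3 allows, and 0.4 after adjustment over the 4 ratios. In PANC-1 the share after knockdown was 82.1, 91.7 and 91.3%, overlapping the controls (geometric mean ratios 8.10 and 5.05, exact permutation p = 0.3). MiR-29b-2-5p had 6 to 16 reads a library there and was below the filter on low counts in the PANC-1 fit.

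The remaining passengers gave wide intervals. MiR-29a-5p had an LFC of -0.06 (95% interval -0.57 to 0.44) in AsPC-1, and of 0.14 without control replicate 1. In PANC-1 it was at 9.90, 8.07 and 6.98 CPM in the controls and 11.2, 10.5 and 9.91 CPM after knockdown. The groups do not overlap, by a margin smaller than 1 read, as they do not for 202 of 551 miRNAs (36.7%) in PANC-1, and the LFC was 0.33 (SE 0.22, adjusted p = 0.293). MiR-29c-5p had LFCs of -0.11 (SE 0.21, adjusted p = 0.800) and 0.27 (SE 0.33, adjusted p = 0.597) from 38–82 reads in AsPC-1 libraries and 9–19 in PANC-1. For the guide to passenger ratios a test of knockdown, 3 libraries against 3, cannot give an exact permutation p under 0.1, so that none could pass. MiR-29b-3p to miR-29b-1-5p in AsPC-1 was 17.8–28.3 in the controls and 11.8–17.2 after knockdown, groups that do not overlap, with an exact permutation p of 0.1, the smallest possible. The other 2 ratios in AsPC-1 had an exact permutation p of 0.5 and 0.9, and those in PANC-1 of 0.3 to 0.5, with groups that overlap.

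**Figure D4:**
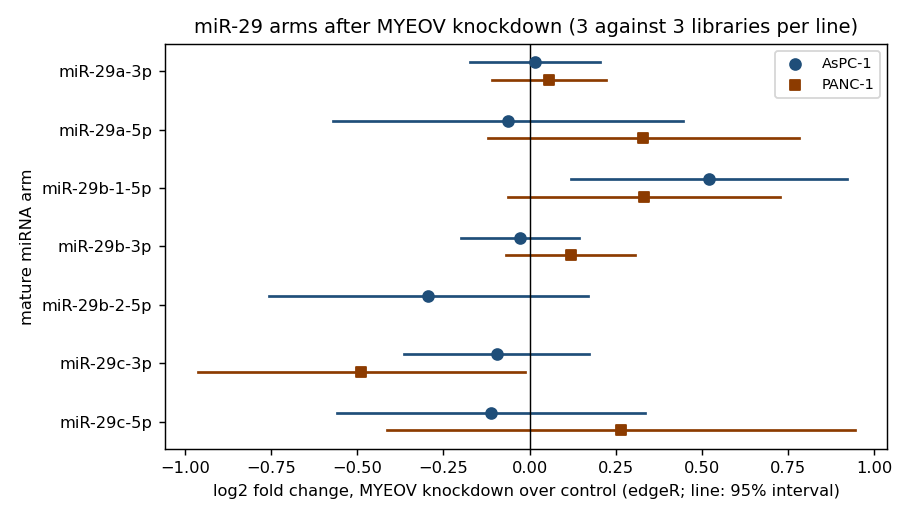
LFC of MYEOV knockdown over control (x axis, log2) for each arm (y axis), in AsPC-1 and PANC-1, with the 95% interval from the edgeR fit of each line, 3 libraries against 3. MiR-29a-3p lies at 0.02 and 0.06 with short intervals, miR-29b-1-5p at 0.52 and 0.33, and miR-29c-3p at -0.10 and -0.49, and miR-29b-2-5p was not tested in PANC-1.

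Whether the effect of knockdown differed between the lines was tested as an interaction over all 12 libraries. For the family 0 of 6 passed (edgeR quasi-likelihood test), 0 had an unadjusted p under 0.05 and DESeq2 called 0, where 2 of 650 miRNAs (0.308%) passed. The difference of LFC, AsPC-1 minus PANC-1, was negative for 4 of the 6, with a median of -0.19 against -0.12 over all 650 miRNAs. Among the guides it was -0.14 (95% interval -0.43 to 0.15) for miR-29a-3p, -0.24 (-0.54 to 0.05) for miR-29b-3p, which had the smallest unadjusted p of the 6 (0.0969), and 0.29 (-0.28 to 0.87) for miR-29c-3p. Among the passengers it was -0.50 (-1.18 to 0.19) for miR-29a-5p, -0.47 (-1.30 to 0.35) for miR-29c-5p and 0.08 (-0.49 to 0.65) for miR-29b-1-5p. All 6 intervals hold 0. The value for miR-29a-3p turned to 0.03 with DESeq2 size factors and to 0.09 with total counts.

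Since miR-29 is known as a MYC-repressed family, its values stand beside those of miRNAs that MYC is known to repress or induce. Of 17 other MYC-repressed miRNAs, which hold some members of the let-7 and miR-30 families and not all of them, 0 of 17 passed in AsPC-1 (edgeR quasi-likelihood test), 4 had an unadjusted p under 0.05 and DESeq2 called 1, and the median LFC was 0.03. In PANC-1 16 were tested, and miR-22-3p (LFC 0.28, adjusted p = 0.0196) and let-7g-5p (LFC 0.24, adjusted p = 0.04999) rose while miR-23b-3p fell by 0.22 on the log2 scale (adjusted p = 0.0463). The median was 0.09. Of the let-7 5p arms outside the list, let-7c-5p (LFC 0.32, adjusted p = 0.00713), let-7f-5p (0.30, adjusted p = 0.0180) and let-7i-5p (0.26, adjusted p = 0.0461) also rose in PANC-1. Let-7b-5p (0.20, adjusted p = 0.0904) and let-7e-5p (0.19, adjusted p = 0.121) did not pass. Among the let-7 3p arms, let-7b-3p (0.71, adjusted p = 0.00079) and let-7a-3p (0.34, adjusted p = 0.0037) rose, and the others tested did not pass. The let-7 arms outside the list are named after their values were seen. The 3 of the 16 listed miRNAs that passed, miR-22-3p, let-7g-5p and miR-23b-3p, stand beside 22% of all miRNAs tested in PANC-1, a share near the background. These 3 PANC-1 calls were lost without control replicate 1, knockdown replicate 2 or knockdown replicate 3 of that line, and 1 was made without control replicate 2.

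Of the 9 MYC-induced miRNAs, from the cluster of miR-17 and that of miR-106b, 3 fell and 1 rose in AsPC-1, and 4 fell and 0 rose in PANC-1, with median LFCs of -0.27 and -0.28, where 11.4% and 22% of all miRNAs passed in either direction. With total counts 8 of the 9 passed in PANC-1. MiR-106b-5p fell by 0.32 and 0.42 on the log2 scale (adjusted p = 0.0262 and 0.00135), and miR-93-5p and miR-17-5p also fell in each line. The study singled out miR-93-5p and miR-17-5p from its own miRNA sequencing of these lines, so their fall here is not independent of its result. MiR-20a-5p fell by 0.32 in PANC-1 (adjusted p = 0.0180). MiR-92a-3p, named here after its values were seen, rose in AsPC-1 (LFC 0.30, adjusted p = 0.0146). The AsPC-1 calls numbered 0 with a block for replicate number, 0 without knockdown replicate 1 or without knockdown replicate 3, and 2 without knockdown replicate 2. The PANC-1 calls numbered 2 without knockdown replicate 3. No difference between the lists and the miR-29 family was tested.

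The miRNAs whose levels moved most like miR-29a-3p, after the mean of each line was taken off, were miR-106b-3p (Pearson r 0.896 over 12 libraries), miR-16-5p (0.882), miR-589-5p (0.872), and miR-365a-3p and miR-365b-3p (0.864 each, with the same counts). They are the first 5 of 259 miRNAs with at least 10 CPM in each line. These values rest on the AsPC-1 libraries, where r was 0.944 to 0.997, while in PANC-1 it was -0.238 to 0.118, and without AsPC-1 control replicate 1 it fell to 0.438–0.550 over 11 libraries. Within the family r with miR-29a-3p was 0.594 for its own passenger miR-29a-5p, which was below the limit of 10 CPM and not ranked. MiR-29b-3p ranked 94 (r 0.425), miR-29c-3p 145 (0.247) and miR-29b-1-5p 161 (0.203), and without AsPC-1 control replicate 1 these were 0.242, -0.0709 and 0.173. The values compared come from the same libraries and share their depth and scaling.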

How the data were processed

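Small RNA was sequenced for 12 libraries, 3 control and 3 MYEOV-knockdown libraries each of AsPC-1 and PANC-1, and groups were taken from the sample labels. The authors trimmed the adapter, used Bowtie to map reads to hg19, discarded reads with a mismatch or outside the length range of miRNAs, and deposited raw read counts per mature miRNA, which are not scaled. Tool version and miRNA release are not given in the sources used here. Reads were counted only if they began at the same base as the commonest sequence of that miRNA, which leaves out isoforms that begin elsewhere. Unlisted miRNAs were given 0.

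Counts were tested with edgeR 4.0.16 in R 4.3.3 (filterByExpr with a minimum count of 10, TMM factors, quasi-likelihood F test), over all miRNAs of a line for knockdown and over all 12 libraries for the line contrast and the interaction. P-values were adjusted by Benjamini-Hochberg over all miRNAs tested, with a threshold of 0.05. The SE is the absolute LFC divided by the square root of F. Arm ratios were compared by exact permutation with scipy 1.17.1. Depth was 3805084 to 7311783 reads a library, which limits the passengers most.

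Named miRNAs are the 6 family members, miR-29b-2-5p, the 5 most correlated with miR-29a-3p (log2 of CPM + 1), and from each MYC list up to 4 that passed in either line, taken by mean absolute LFC. MiR-92a-3p and the let-7 arms outside the MYC-repressed list are outside this rule, and the cell type markers are a separate list, of which only some are named. Members and lists were chosen with earlier results of these data known, and the MYC lists are from general knowledge. Alternatives were other scalings, DESeq2 1.42.0, no filter, all libraries in one fit, control libraries alone, a replicate block, 0.5 added to each count in the ratios, and leaving out each replicate. The scripts were tested on simulated data. Hairpins were placed on GRCh37 by exact match and annotated with GENCODE.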

Additional observations from a re-analysis of the deposited data

How the results depend on the processing

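No miR-29 arm or arm ratio past the threshold reversed its direction under any alternative run. Directions of single miRNAs outside the family were not compared. Below the threshold, total counts turned the knockdown LFC of miR-29a-3p to -0.00 in AsPC-1 and -0.09 in PANC-1. MiR-29b-3p in PANC-1 turned to -0.03. Calls among the 6 family miRNAs on knockdown in AsPC-1 (0) became 1 with no filter and ran from 0 to 2 over the libraries left out, and in PANC-1 (0) from 0 to 1. The count of arm ratios that differed between the lines (1) was 0 with the control libraries only, where the exact test cannot pass. MYC-repressed calls in AsPC-1 (0) were 1 with DESeq2, 2 with no filter, 1 with all 12 libraries in one fit and 0 to 4 over the libraries left out. In PANC-1 (3) they were 1 with upper-quartile factors, 1 with no filter, 0 with all 12 libraries in one fit and 0 to 4 over the libraries left out. MYC-induced calls in AsPC-1 (4) ran from 0 to 4, and in PANC-1 (4) they were 8 with total counts and 2 to 5 over the libraries left out. The family's line calls (5) ran from 4 to 6 over the libraries left out. The cause was not tested. Over all miRNAs the 57 calls in AsPC-1 ran from 24 to 102 and the 121 in PANC-1 from 55 to 129 over the libraries left out, and PANC-1 gave 67 with all 12 libraries in one fit. Total counts gave 26 higher and 117 lower miRNAs after knockdown in PANC-1, against 70 and 51, and moved the median LFC by -0.15. Fitting all 12 libraries together gave 25 higher and 45 lower in AsPC-1, against 35 and 22, and moved the median by -0.10.

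Control and knockdown libraries share replicate numbers, but same-numbered libraries did not deviate together (r -0.168, -0.136 and 0.111 in AsPC-1, 0.0677, 0.0324 and 0.153 in PANC-1), so the numbers were not taken as a pairing. With the replicate block 29 miRNAs passed in AsPC-1 and 153 in PANC-1, MYC-induced calls in AsPC-1 were 0 and MYC-repressed calls in PANC-1 were 6, and family calls stayed at 0 in both lines.

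Low counts limit the passengers: miR-29b-2-5p and miR-29c-5p had 6 to 19 reads in PANC-1 libraries.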
